A study of Mus musculus with 8 samples.

Results

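Elastic fibre and microfibril genes were followed in cultured mouse myotubes left without fresh medium. The set is a list of 10 gene symbols, drawn up with earlier results of these data known and with no threshold on measured values: Mfap2, Mfap4, Mfap5, Fbn1, Fbn2, Eln, Fbln1, Fbln2, Fbln5 and Emilin1. Every probe set whose platform annotation gives 1 gene symbol, that symbol being in the set, was taken. This gave 13 probe sets of 9 genes among the 22626 probe sets of the array that are not controls. Fbn1, the main fibrillin, was not analysed here.

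The cells were C2C12, a mouse myoblast line that fuses into myotubes when serum is lowered, kept in differentiation medium with 2% horse serum. Both groups were fed alike until day 4. From then on 4 control samples (arrays A to D) received fresh medium every 48 h, while 4 starved samples (arrays E to H) received none for 4 days, and total RNA of both was taken on day 8. Both groups come from 1 cell line, without the connective tissue of a muscle, and the labels do not say whether the samples of a group were separate cultures. The error behind each p-value is therefore only that between these samples and may be technical.

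Elastic fibres have a core of cross-linked elastin laid on a scaffold of fibrillin microfibrils. Microfibrils also carry small glycoproteins such as MAGP-1 (Mfap2) and MAGP-2 (Mfap5) and tether latent TGF-beta, while fibulins join elastin to microfibrils, to cross-linking enzymes and to the cell surface. In skeletal muscle these fibres run in the connective tissue around fascicles and fibres and give it elastic recoil.

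Control arrays tended to be brighter before scaling: the trimmed mean intensity was 317 to 455 in controls and 243 to 366 in starved arrays, a log2 difference of -0.38 (two-sided exact permutation test, p = 0.0857). Control B stood apart in the Gapdh control probe sets, a sign of RNA quality, with a 3′ to 5′ log2 ratio of 1.40 beside -0.23 to -0.04 in the other 7 arrays. Its Actb ratio was 0.32 beside 0.02 to 0.29. Without control B the member genes called were again 2 lower and 0 higher.

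Starved samples had less mRNA for Mfap5 and Fbln5, and no member gene was called higher. Mfap5 fell 5.74-fold by the probe set with the higher mean over the 8 arrays. Its other probe set fell less and did not pass (log2 fold change -0.54, adjusted p = 0.064, limma). Fbln5 fell 2.59-fold. Elastin itself (Eln), Fbln1 and Fbln2 did not pass, and Mfap2, Mfap4, Fbn2 and Emilin1 were too dim to be tested. Around the members, 3 of 4 tested lysyl oxidases, which cross-link elastin, also fell, beside 6.93% of all genes tested. For Loxl3, 1 of these 3, the call was lost in 8 of 18 alternatives. The latent TGF-beta binding protein Ltbp2 fell as well. Decorin (Dcn) was the 1 gene among 29 tested partners that rose.

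Of the 5 member genes tested through their brightest probe set, 2 fell and 0 rose (limma), and 0 of their probe sets were higher at an unadjusted p under 0.05. Among all 8352 genes tested the share was 6.93% lower and 4.25% higher, 11.2% in all. By probe set, 2 of 6 tested were lower and 0 higher, against 6.23% lower and 4.35% higher, 10.6% in all, of 13575. The median log2 fold change of the 5 genes was -0.08, beside 0.01 over all genes, so the median of the set lay close to that of all genes and 2 members stood far below it. Mfap5 had the rank 4 from the lowest fold change among the 8352 genes, and Fbln5 the rank 49. Fold changes are differences of mean log2 signal, starved minus control, after an offset of 10.9 intensity units was added and arrays were quantile normalized. Adjusted p-values are Benjamini-Hochberg values from limma over all 13575 probe sets, unless another fit, setting or set of tests is named. After a fold change, ± is limma's standard error, and n = 4 arrays per group except where an array is left out. Values by array are listed from A to D and then from E to H. In such bulk RNA, fewer cells of a type and less RNA per cell cannot be told apart.

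**Figure D1:**
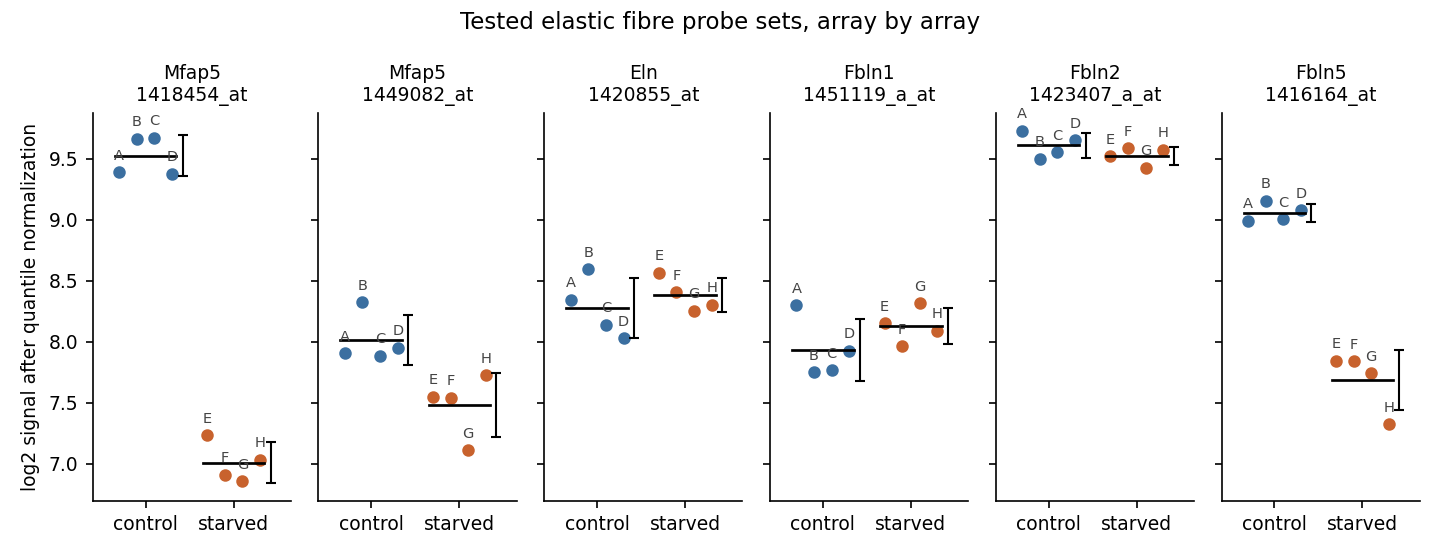
Log2 signal after quantile normalization (vertical axis) of the 6 tested member probe sets in each array, with controls A to D in blue and starved E to H in orange. Horizontal lines are group means and bars are SD (n = 4). The groups are separate for both Mfap5 probe sets and for Fbln5 and overlap for Eln, Fbln1 and Fbln2. Signals of different probe sets cannot be compared as levels.

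Among the microfibril glycoproteins, Mfap5 carried the clearest change. MAGP-2, its product, binds fibrillin and holds an integrin recognition motif. The deposited intensity of probe set 1418454_at was 907, 769, 833 and 840 in controls, against 101, 95.3, 89.8 and 140 in starved arrays. All 4 starved arrays thus lay far below all controls, and starved H was the highest of them. After scaling, its log2 signals were 9.39, 9.67, 9.68 and 9.38 in controls and 7.23, 6.91, 6.86 and 7.03 in starved arrays. The group means of the log2 signal were 9.53 ± 0.16 (SD, n = 4) and 7.01 ± 0.17 (SD, n = 4). Mfap5 thus dropped by 2.52 ± 0.13 log2 units (limma, adjusted p = 5.67e-07).

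The second Mfap5 probe set, 1449082_at, moved the same way but much less. Its log2 signals were 7.91, 8.32, 7.88 and 7.95 in controls, against 7.55, 7.54, 7.11 and 7.72 in starved arrays. The groups did not overlap, with control B above the other controls and starved G below the other starved arrays. The log2 fold change was -0.54 ± 0.16 and did not pass (adjusted p = 0.064, limma), with an interval of the difference from -0.90 to -0.17 before adjustment. Of 17 alternatives it passed in 3: without starved H (-0.62, adjusted p = 0.0491), with array weights (-0.49, adjusted p = 0.0494) and in unscaled values (-0.88, adjusted p = 0.0299). In the other 14 it did not pass, among them without control B (-0.43, adjusted p = 0.133, limma) and without starved G (-0.41, adjusted p = 0.132, limma). Against the median of all probe sets it stood at -0.54 in unscaled values, beside -0.55 as reported. Groups that do not overlap were seen in 3 of the 6 tested member probe sets, all lower, beside 9.16% lower, 8.21% higher and 17.4% in either direction over all tested probe sets.

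The annotation gives both Mfap5 probe sets the same transcript accession, so their disagreement was tested within arrays. The log2 signal of 1418454_at minus that of 1449082_at lay between 1.34 and 1.79 in controls and between -0.69 and -0.25 in starved arrays. The ranges were far apart, and the fold changes differed by -1.98 on the log2 scale (two-sided exact permutation test, p = 0.0286, the smallest that 70 labellings allow). Adjusted over the 4 pairs of probe sets of member genes this was 0.114, so the design could not pass after that correction unless other pairs also reached the smallest p. A limma fit over 4131 pairs, the brightest tested probe set of a gene against each of its others, was added after the Mfap5 values were seen. For Mfap5 it gave -1.98 ± 0.16 (adjusted p = 8.97e-04). In that fit 0.315% of pairs (13) differed. The mean of both Mfap5 probe sets was still called lower (-1.53, adjusted p = 1.70e-05). A 5.74-fold change therefore rests on 1 probe set, whereas the direction is shared by both. That probe set was the brighter of the pair in every control and the dimmer in every starved array. It stands for the gene, also in its rank and in the figure by role, through its higher mean over all arrays.

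The other microfibril members were dim, below the brightness limit of log2 6.61 that a probe set had to exceed as a mean over the 8 arrays. No detection calls were used, so whether they lie above background is unknown. Mfap2, which encodes the related glycoprotein MAGP-1, had intensities of 63.6, 33.1, 40.2 and 50.6 in controls and 35.2, 45.5, 37.0 and 51.3 in starved arrays. The groups overlapped, and the log2 fold change was 0.25 ± 0.20 in a fit without the brightness limit (adjusted p = 0.594, limma). Mfap4, a fibrinogen-like protein that binds elastin and microfibrils, had intensities of 5.9 to 9.3 over all 8 arrays, under the offset of 10.9. Fbn2, the fibrillin of developing tissue, ranged from 8.6 to 36 in controls and from 10.3 to 35.9 in starved arrays, and its groups overlapped as well.

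Emilin1, a glycoprotein found where elastin meets microfibrils, was dim on both its probe sets. Probe set 1416414_at had intensities of 16.2, 7.1, 54.7 and 9.3 in controls and 14.8, 17.5, 10.6 and 9.2 in starved arrays, with control C apart from every other array. Probe set 1431834_a_at ranged from 20.9 to 37.6 in controls and from 15.5 to 35.2 in starved arrays. Neither separated the groups, with log2 differences of -0.02 and 0.05.

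Eln encodes tropoelastin, the soluble form that is cross-linked into the elastic core. Intensities of its brighter probe set 1420855_at were 442, 345, 276 and 317 in controls, against 265, 273, 252 and 352 in starved arrays. Log2 signals after scaling were 8.34, 8.60, 8.14 and 8.03 against 8.57, 8.41, 8.25 and 8.30, so the starved arrays lay inside the range of the controls. The log2 fold change was 0.11 ± 0.14 (adjusted p = 0.712, limma). Its interval ran from 0.867-fold to 1.34-fold, so a fall of Eln as large as that of Mfap5 or Fbln5 lies outside it. The dim probe set 1420854_at gave 0.01, and both probe sets agreed within the spread of the arrays (difference 0.09, exact permutation p = 0.714).

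Of the 3 fibulins among the members, all tested, Fbln5 was called. Fibulin-5 binds tropoelastin, the cross-linking enzyme LOXL1 and integrins of the cell surface, and is required for elastic fibre assembly. Intensities of 1416164_at were 690, 526, 513 and 680 in controls and 159, 185, 174 and 175 in starved arrays. Log2 signals were 8.99, 9.16, 9.01 and 9.08 against 7.84, 7.84, 7.74 and 7.32. The groups lay well apart, and after scaling starved H was the lowest array. Fbln5 dropped by 1.37 ± 0.13 log2 units (limma, adjusted p = 6.60e-05), and it has no second probe set with which to compare.

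Fbln1 and Fbln2, which encode fibulins of elastic fibres and basement membranes, did not follow Fbln5. Fbln2 had log2 signals of 9.73, 9.50, 9.56 and 9.65 in controls and 9.52, 9.59, 9.43 and 9.58 in starved arrays. These overlapped, with a fold change of -0.08 ± 0.09 (adjusted p = 0.631, limma) and an interval from 0.823-fold to 1.08-fold. Fbln1 probe set 1451119_a_at had 8.30, 7.75, 7.76 and 7.93 in controls and 8.15, 7.96, 8.32 and 8.09 in starved arrays. Control A was high, and the fold change was 0.20 ± 0.15 (adjusted p = 0.468, limma) with an interval from 0.915-fold to 1.44-fold. The second Fbln1 probe set 1422540_at, just under the brightness limit, stood at 0.07, which differed from the first by less than the spread of the arrays (0.13, exact permutation p = 0.257). In unscaled values Fbln1 and Eln turned to -0.14 and -0.26, neither of them called, while Mfap5 (-2.87) and Fbln5 (-1.72) were lower still.

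The difference between fibulins was tested within arrays, a comparison chosen after the values were seen. Fbln5 minus Fbln2 lay between -0.74 and -0.35 in controls and between -2.25 and -1.68 in starved arrays, a difference of fold changes of -1.29. Fbln5 minus Fbln1 ran from 0.70 to 1.41 in controls and from -0.77 to -0.12 in starved arrays, a difference of -1.57. Neither pair of ranges overlapped (two-sided exact permutation test, p = 0.0286 in both, also after adjustment over the 2 comparisons, the smallest that 70 labellings allow). Because the comparison was chosen from these same values, its p-values add no support to them, and the adjustment does not cover that choice.

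**Figure D2:**
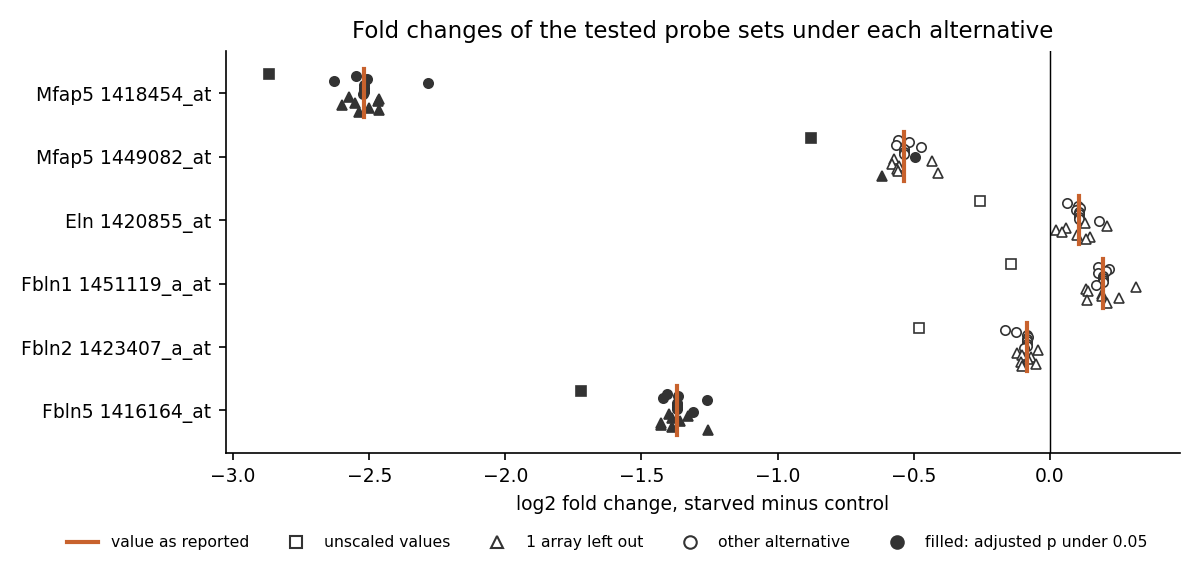
Log2 fold change, starved minus control (horizontal axis), of the 6 tested member probe sets as reported (orange bar) and under each alternative: unscaled values (square), 1 array left out (triangle) and other settings (circle), filled where the adjusted p was under 0.05. Mfap5 1418454_at (-2.87 to -2.29) and Fbln5 (-1.72 to -1.25) passed in each alternative, whereas Eln and Fbln1 crossed 0 in unscaled values.

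Sequence before the transcription start is shown for Fbln5, which fell, and for Fbln1, which did not pass, so that members of 1 family with different fold changes can be set side by side. Promoter windows from RefSeq (GRCm38.p6) were found for 6 of the 10 members. Mfap5, Mfap4, Eln and Fbn2 are named only. The 250 bases before the outermost start are given 5′ to 3′ in the direction of the gene, with motif matches in capitals. The Fbln5 window is chr12:101819120-101819369 on the minus strand, and that of Fbln1 is chr15:85205699-85205948 on the plus strand. The third line is a stretch of 30 bases before a second, inner start of Fbln5, chr12:101818590-101818619 on the minus strand.
Fbln5: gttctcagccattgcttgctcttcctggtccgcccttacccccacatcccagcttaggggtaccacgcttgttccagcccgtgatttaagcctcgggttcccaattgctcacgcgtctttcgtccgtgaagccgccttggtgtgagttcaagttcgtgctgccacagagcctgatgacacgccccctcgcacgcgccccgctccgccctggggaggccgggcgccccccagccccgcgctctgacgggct
Fbln1: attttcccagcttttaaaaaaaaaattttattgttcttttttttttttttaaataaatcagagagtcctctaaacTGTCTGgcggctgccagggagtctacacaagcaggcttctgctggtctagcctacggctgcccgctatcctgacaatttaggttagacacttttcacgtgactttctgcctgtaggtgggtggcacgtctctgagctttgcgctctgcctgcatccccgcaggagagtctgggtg
Fbln5, inner start: cttttagctagTGATGCAAtgaccctgtta

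Motifs were searched on both strands: the CArG box bound by serum response factor, the AP-1 motif TGANTCA, the TEAD motif GGAATG, the SMAD motif CAGACA and the C/EBP-ATF motif TGATGNAA, chosen after these sequences had been seen. The Fbln5 window at the outermost start held none of them. Neither did the window of Fbln2, which also did not pass and is not shown. The Fbln1 window held 1 SMAD match on the opposite strand (TGTCTG), and the same bases lie in the overlapping window of a second Fbln1 start, which is not shown. The window at the inner Fbln5 start held 1 SMAD match, which is not in the stretch shown, and the C/EBP-ATF match in capitals, 124 to 117 bases before that start. The pair of matches at the inner Fbln5 start did not overlap each other. Of 32851 promoter windows in the table, 17.1% held the SMAD motif, 3.45% the C/EBP-ATF motif, 12.6% the TEAD motif, 6.75% the AP-1 motif and 1.47% the CArG box. A match describes these letters only and is not a site shown to be used.

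The partners of the members come from a list of 49 genes by role. Of these, 39 had a probe set with 1 symbol and 29 were tested, of which 12 were lower, 1 was higher and 16 did not pass, against 6.93% lower and 4.25% higher among all genes. The median log2 fold change over the 29 was -0.24, beside 0.01 over all genes. The number of lower genes ran from 9 to 13 over the alternatives, and the calls of Loxl3, Ltbp3, Tgfb3 and Fn1 were among those lost in some of them.

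Lysyl oxidases oxidise lysines of elastin and collagen so that cross-links can form. Of 4 tested, 3 fell (2 without control B), with a median of -0.52. Lox, the founding member, had log2 signals of 11.10, 10.92, 10.84 and 10.93 in controls and 9.27, 9.62, 9.39 and 9.83 in starved arrays. Groups lay far apart, and Lox fell by 1.42 ± 0.12 (adjusted p = 2.51e-05, limma). A second tested probe set of Lox also fell (-1.16, adjusted p = 0.00793).

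Loxl1, the enzyme that fibulin-5 binds, had log2 signals of 11.20, 11.14, 11.23 and 11.04 in controls and 10.60, 10.70, 10.31 and 10.63 in starved arrays, without overlap. It fell by 0.59 ± 0.09 (adjusted p = 0.0020, limma). Loxl3 fell by 0.46 ± 0.12 (adjusted p = 0.0309), a call lost when any 1 array other than starved E was left out (highest adjusted p = 0.0885). Loxl4 did not pass (0.12).

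Latent TGF-beta binding proteins sit on microfibrils. Of the 4 tested 2 fell (1 without control B), with a median of -0.29. Ltbp2, which binds fibrillin-1 and fibulin-5, had log2 signals of 9.07, 9.39, 9.07 and 9.07 in controls and 8.27, 8.27, 8.07 and 8.01 in starved arrays. Control B stood above the other controls, all of which lay above the starved arrays. The log2 fold change of Ltbp2 was -0.996 ± 0.117 (adjusted p = 2.68e-04, limma), and -0.91 without control B (adjusted p = 4.52e-04).

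Ltbp3 fell by 0.34 ± 0.09 (adjusted p = 0.0370), a call lost when any 1 array other than control C was left out (highest adjusted p = 0.108) and in 4 other settings. Its second probe set stood at -0.17 (adjusted p = 0.568). Ltbp1 did not pass (-0.24 ± 0.11). Ltbp4 stood on the other side and did not pass (0.37 ± 0.11, adjusted p = 0.0689, limma), with all starved arrays above all controls. It was called higher in the fit on genes with their probe sets averaged (0.37, adjusted p = 0.0494, limma). Ltbp4 has 1 probe set, so its fold change was the same there and only the adjusted p moved. Among the other fibulins and the EMILIN family only Emilin3 was tested (0.10, adjusted p = 0.880). Efemp1 and Fbln7 were below the brightness limit, at differences of 0.65 and 1.27 with overlapping groups.

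Of the ADAMTS and ADAMTS-like proteins of microfibrils, Adamtsl4, whose product binds fibrillin-1, fell by 0.67 ± 0.13 (adjusted p = 0.00738, limma). Adamts10 (-0.22) and Adamtsl5 (0.03) did not pass. Among 10 tested assembly partners 4 fell and 1 rose, with a median of -0.24. The proteoglycan decorin (Dcn), which binds collagen and microfibrils, was the gene that rose, by 0.94 ± 0.14 (adjusted p = 0.00147), lost in unscaled values (0.57, adjusted p = 0.0924). Its log2 signals were 10.44, 9.67, 10.13 and 10.17 in controls and 10.92, 11.09, 10.99 and 11.17 in starved arrays, with control B the lowest.

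The integrin subunit Itgav pairs with several beta subunits into receptors for fibulin-5 and fibrillin. Itgav fell by 0.75 ± 0.09 (adjusted p = 3.29e-04, limma) by its brightest probe set, while a dimmer tested one stood at 0.08 (adjusted p = 0.854). Biglycan (Bgn), a proteoglycan that binds tropoelastin, fell by 0.71 ± 0.10 (adjusted p = 9.68e-04), and its other tested probe sets were called lower too (-0.52 and -0.46). The remaining lower genes, named after their values were seen, were Itgb5, a partner of Itgav (-0.66 ± 0.09), and fibronectin Fn1 (-0.50 ± 0.07). All 4 probe sets of Itgb5 were called, from -1.16 to -0.66. The call of Fn1 was lost with median centring and with 75th percentile centring (highest adjusted p = 0.0652). Furin, Itga5, Itgb1, Hspg2 and Vcan did not pass (-0.33 to 0.05).

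Of 3 TGF-beta ligands 1 was lower (2 without control B). Tgfb3 fell by 0.41 ± 0.11 (adjusted p = 0.0304, limma), a call lost in 9 alternatives, among them leaving out control A, control C, control D, starved G or starved H (highest adjusted p = 0.0865). Tgfb2 did not pass (-0.03). Tgfb1 did not pass with all arrays (-0.55 ± 0.59, adjusted p = 0.629), where control B had a log2 signal of 7.14. The 3 remaining controls lay at 10.23 to 10.33, above starved arrays at 8.83 to 9.04. Without control B it stood at -1.33 ± 0.09 and was called (adjusted p = 7.31e-06). Of 4 tested proteases of the elastolytic list 1 fell, with a median of 0.10. Mmp14, a membrane-bound metalloprotease, fell by 1.14 ± 0.11 (adjusted p = 6.60e-05) by its brightest probe set. Its second probe set gave -0.39 ± 0.67, with control B at 5.24 and the other controls at 8.57 to 8.98, and the mean of both did not pass (-0.76, adjusted p = 0.215). Without control B the second probe set was also called lower (-1.26 ± 0.16, adjusted p = 5.83e-04). Mmp2, Mmp9 and Ctsl did not pass (0.07 to 0.14), although a second probe set of Mmp2 was called lower (-0.49, adjusted p = 0.00270). Mmp7, Mmp12, Ctsk, Ctss and Elane were below the brightness limit.

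**Figure D3:**
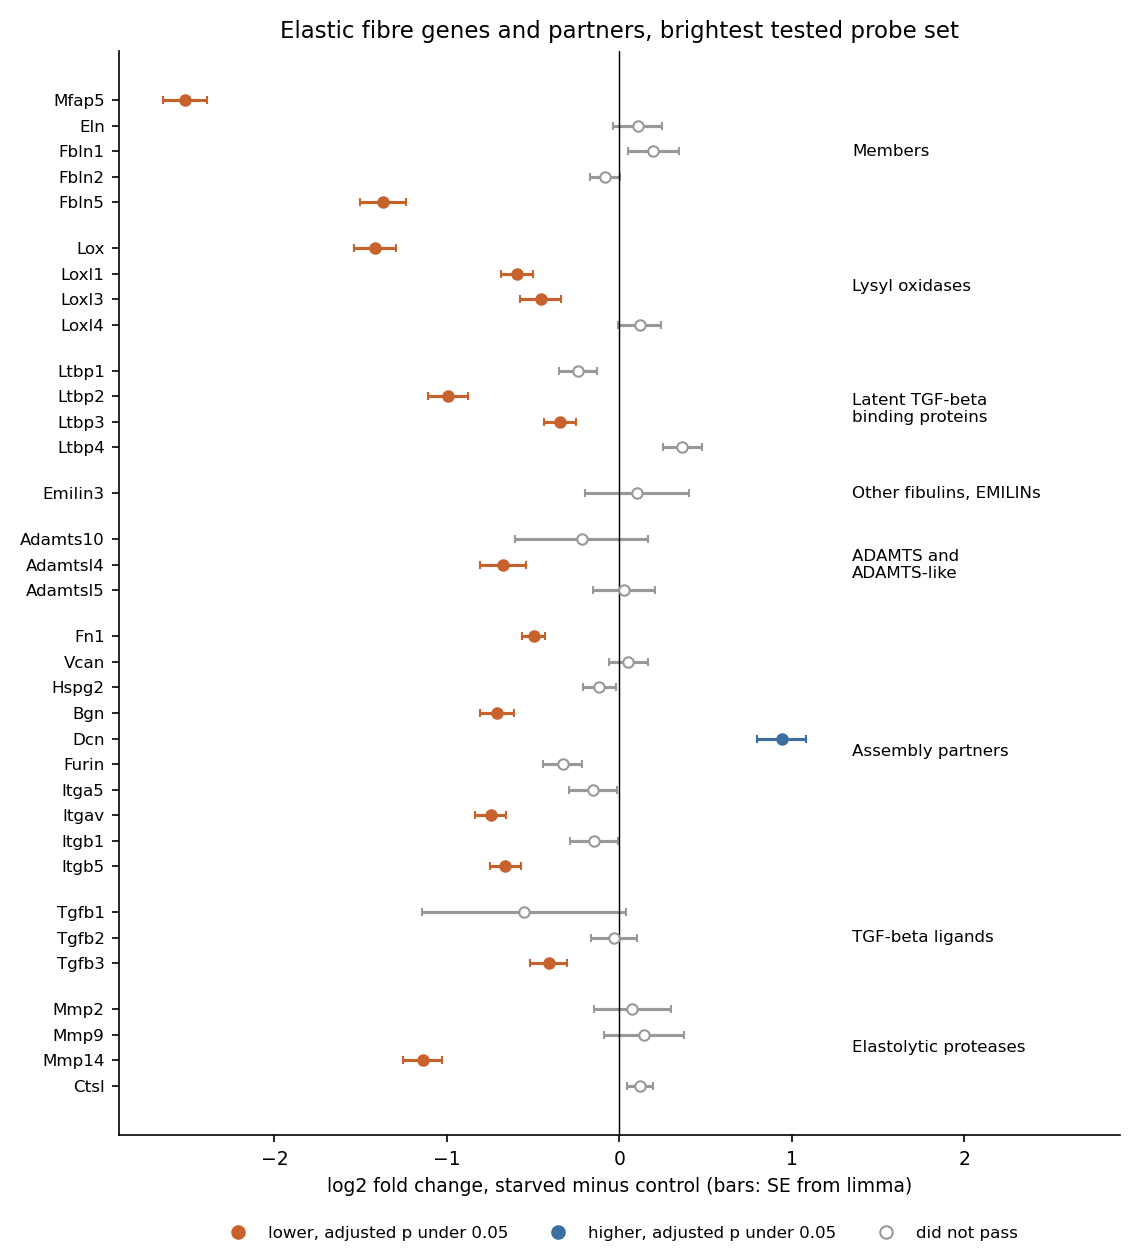
Log2 fold change, starved minus control (horizontal axis), of the 5 tested members and 29 tested partners grouped by role, each through its brightest tested probe set. Bars are limma standard errors, and filled points passed an adjusted p of 0.05, orange lower and blue higher. Mfap5 (-2.52), Lox (-1.42) and Fbln5 (-1.37) lie farthest to the left, and Dcn (0.94) is the filled point to the right of 0.

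The genes whose signals followed Mfap5 1418454_at most closely over the 8 arrays were Htr2b (Pearson r = 0.997), Adamts4 (0.994), Mgp (0.994), Col1a1 (0.994) and Stmn2 (0.994). All 5 were called lower (limma), with log2 fold changes of -0.89 for Htr2b, -2.49 for Adamts4, -2.07 for Mgp, -1.15 for Col1a1 and -1.43 for Stmn2. These correlations mostly reflect the distance between the 2 groups of arrays and describe these arrays only.

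Myotube markers were bright in all arrays, with a summed signal of 67784 to 73455 in controls and 66964 to 68703 in starved arrays. Of 10 markers 2 fell (Des by 0.22 and Tnnt1 by 0.16) and Actn2 rose by 0.58 (lost in unscaled values). The call of Des was lost in 4 of 18 alternatives, and that of Tnnt1 was kept in only 7 of 18. Of 7 tested fibroblast markers, a cell type that makes elastic fibres, 2 fell (3 without control B): Pdgfrb fell by 1.83 and Col1a1 fell by 1.15. The gene added without control B was Col1a2 (-0.40, adjusted p = 0.0253, limma). With all arrays the brightest probe set of Col1a2 stood at -0.32 (adjusted p = 0.0992, limma). Its second probe set was called lower (-0.56, adjusted p = 0.00381). The remaining tested fibroblast markers did not pass (limma) and did not all share that direction. Pdgfra stood at 0.56 (adjusted p = 0.0782) and Lum at 0.34 (adjusted p = 0.283), both with starved arrays above all controls. Thy1 stood at 0.20 (adjusted p = 0.557) and Col3a1 at -0.08 (adjusted p = 0.629). The summed signal over the list was 10182 to 11358 in controls and 7835 to 9232 in starved arrays, and Tcf21 was below the brightness limit. In the smooth muscle list Tagln fell by 2.65 and Acta2 fell by 0.30. The Acta2 call was lost with median or 75th percentile centring and without the intensity trend (adjusted p = 0.0635, limma). A second Acta2 probe set, below the limit, stood at 0.01. Sums were 11204 to 11514 in controls and 7801 to 8655 in starved arrays. Most of each sum was Acta2, with a mean log2 signal of 13.22 in controls beside 10.71 for Tagln. As in the other lists, genes below the limit were included, here Myh11, Cnn1 and Lmod1. Of 5 tested myoblast and reserve cell markers Cdk1 fell by 0.82 and Vcam1 rose by 0.93 (lost in unscaled values), with overlapping sums of 1096 to 1268 and 1057 to 1204. The 3 tested endothelial and leukocyte markers did not pass (-0.05 for Cdh5, 0.19 for Kdr and 0.33 for Cd68), with sums of 460 to 512 and 492 to 658, and Pecam1 and Ptprc were below the limit. The part of fibroblast-type or smooth muscle-type cells in the fall of Mfap5 and Fbln5 was not tested.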

How the data were processed

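Affymetrix arrays of 4 control and 4 starved samples were grouped by their titles. The deposited table gives 1 intensity per probe set and array. The steps by which the authors made these intensities are not given in the sources used here. Trimmed means (2% dropped at each end) differed between arrays by up to 1.87 times, so the deposited intensities were not on a common scale. The number of arrays limits the precision.

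To each intensity 10.9 was added (the 10th percentile of all values), followed by log2 and quantile normalization. This assumes equal signal distributions in both groups, and the offset understates changes of dim genes. After removal of 64 control probe sets, the 13575 whose mean exceeded the 40th percentile were tested with limma 3.58.1 in R 4.3.3 (intensity trend, Benjamini-Hochberg, threshold 0.05). Symbols came from the platform annotation, of which 20351 of 20380 with 1 symbol matched RefSeq by gene number. Each gene stands by the tested probe set of highest mean. Figures used matplotlib 3.10.9.

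The named genes are all 10 members, up to 3 called genes per partner list with the largest change, the 5 genes most like Mfap5 and the called cell type markers. Members and lists were chosen with earlier results of these data known. Alternatives covered scaling, offset, brightness limit, variance model, averaging the probe sets of each gene and leaving out each array in turn.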

Additional observations from a re-analysis of the deposited data

Results flagged for a closer look

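All 13 member probe sets, the 81 tested probe sets of partner and marker genes and 3 array measures were examined for 1 array standing apart within its group of 4 by Dixon's 95% limit, which chance gives in about 1 in 20 groups. It was met in 23 of 194 groups (11.9%), and 11 of these concerned control B. The part of RNA quality in them was not tested. Log2 signals follow, with the other 3 arrays of the group in parentheses.

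Among the members, control B was at 8.32 for Mfap5 1449082_at (7.88 to 7.95) and control C at 5.96 for Emilin1 1416414_at (4.16 to 4.44). Control B was low for Tgfb1 at 7.14 (10.23 to 10.33) and for the second probe set of Mmp14 at 5.24 (8.57 to 8.98), and its Gapdh 3′ to 5′ log2 ratio was high at 1.40 (-0.22 to -0.12). It was also low for Tgfb3 at 11.17 (11.41 to 11.43), Cdk1 at 7.97 (8.17 and above), Myog at 11.90 (12.56 to 12.66) and Acta1 at 13.45 (13.53). For Acta1, controls A, C and D had the same value after quantile normalization, so the limit was met through a tie. Its deposited intensities were 13281, 11192, 12174 and 14249 in controls A to D. Control B was high for Ltbp2 at 9.39 (9.07), a second Col1a1 probe set at 9.80 (9.31 to 9.33) and Itga5 at 8.74 (8.26 to 8.34). Control A was high for Furin at 9.585 (9.41 to 9.43) and low for an Itgb5 probe set at 9.89 (10.35 to 10.41).

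Starved H was low for Top2a at 5.45 (7.23 to 7.39) and the second Col1a1 probe set at 7.504 (8.37 to 8.44), and high for Ctsl at 12.39 (12.08 to 12.13) and Ltbp4 at 8.81 (8.64 to 8.66). Starved G was low for Ckm at 11.93 (12.06 to 12.07) and the dimmer Itga5 probe set at 6.295 (7.25 to 7.39), and high for Tnnt1 at 13.00 (12.91 to 12.92). Starved E was high for Tnnt3 at 13.27 (12.96 to 13.01), and starved F for Vcan at 8.56 (8.38 to 8.39).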

How the results depend on the processing

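The calls of Mfap5 (1418454_at) and Fbln5 as lower held in each of 18 alternatives, with adjusted p-values up to 4.29e-04, and the count of member genes, 2 lower and 0 higher, was unchanged in 19 (limma). The balance of all calls depends on the scaling: 591 probe sets were higher and 846 lower as reported (41.1% of calls higher), against 79 and 1533 in unscaled values (4.90%), where the median log2 fold change of all probe sets moved from 0.02 to -0.33. With median centring 364 were higher (30.7%). Leaving out each array in turn gave 385 (without starved F) to 624 higher. Among the partners the number higher was 0 in unscaled values and 2 (Dcn and Ltbp4) when probe sets of each gene were averaged. In unscaled values Eln turned to -0.26 and Fbln1 to -0.14. Against the median of all probe sets in that setting they stood at 0.08 and 0.19, Fbln2 at -0.15, Fbln5 at -1.39 and Mfap5 at -2.54. Tnnt1 turned to 0.024 with 75th percentile centring. No paired analysis was possible because the replicate letters differ between the groups. Detection calls were not used, so signal over background limits what can be said of the 7 dim member probe sets.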
